A study of Drosophila melanogaster with 12 samples.

Results

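Glia of the Drosophila nervous system were followed through the series by 9 marker genes: repo, alrm, Eaat1, Gat, Gs2, wrapper, nrv2, moody and Tret1-1. They are known markers, taken by FlyBase symbol with earlier results of these data known, and all 9 of the 17737 genes counted were found by their identifiers. Poly(A) RNA of 12 samples was sequenced, in 4 groups of 3. The study targeted Atx2, which encodes the RNA-binding protein Ataxin-2, in brains and in cultured cells. The first group was whole brains of 3rd instar larvae with a short hairpin RNA (shRNA) against Atx2 driven by elav gal4, a driver known for its activity in neurons, and it is called shRNA brains here. Control brains came from larvae of the same stage, for which no treatment is named. Atx2 dsRNA cells were S2 cells, a line derived from embryos with traits of blood cells, given double-stranded RNA against Atx2, and control S2 cells had no treatment. The labels name no driver, hairpin or unrelated dsRNA in the control groups, so the effect of these cannot be told apart from that of the loss of Atx2. They do not say whether replicates came from separate animals, crosses or cultures. The p-values therefore set group differences against the scatter of these samples alone, and that scatter may be technical.

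Glia of the fly brain fall into classes by position. Astrocyte-like glia send processes into the neuropil and take up transmitters, cortex glia enclose neuronal cell bodies and neuroblasts, and perineurial and subperineurial glia form the blood-brain barrier. Nearly all of these classes, apart from the midline glia, express the transcription factor Repo.

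Libraries held 26442727 to 28086056 counts in shRNA brains, 29754856 to 31579528 in control brains, 14944637 to 20400465 in Atx2 dsRNA cells and 25994555 to 29020252 in control S2 cells. Levels are CPM, counts per 1000000 after scaling between libraries by TMM (trimmed mean of M-values), and a call is an adjusted p under 0.05 in the quasi-likelihood F test of edgeR with Benjamini-Hochberg adjustment over all genes tested in that comparison. Each adjusted p below comes from this test. Atx2 itself stood at 92.4, 97.8 and 104 CPM in shRNA brains, against 187, 195 and 197 CPM in control brains, and fell by 0.97 ± 0.08 on the log2 scale (SE, adjusted p = 0.00271). Atx2 had 149, 55.3 and 166 CPM in Atx2 dsRNA cells and 242, 218 and 226 CPM in control S2 cells, a log2 difference of -0.89 ± 0.35 (SE) that missed the threshold (adjusted p = 0.0613). Glue gene counts set 1 control brain library apart: the 6 salivary gland markers summed to 1926 CPM in control library 3, against 0.924 to 28.2 CPM in the other 5 brain libraries. The gut markers summed to 2230.1 CPM in shRNA library 1, against 137 to 343 CPM in the other 5.

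In the brain, 7 of the 9 glial genes rose with Atx2 shRNA, none fell, and Eaat1 and wrapper did not pass the test. The 7 were alrm, Gat, Gs2, repo, nrv2, moody and Tret1-1, with fold differences of 1.35 to 3.81, and alrm, Gat and Gs2 rose at least 2-fold. Over all 10438 genes tested in the brain, 23.0% were called, 11.5% higher and 11.5% lower, and 5.19% were called at least 2-fold higher. The median log2 fold change was 0.59 over the 9 glial genes and 0.01 over all genes tested. In each of the 7 called genes, the lowest shRNA library lay above the highest control library, while 44.5% of all genes tested showed such a separation and 22.0% showed it in that direction. Summed over the 9 genes, the level was 2514 ± 506 CPM in shRNA brains and 1295 ± 207 CPM in control brains (SD, n = 3 each). The largest part of that difference came from Gs2, with 849 ± 285 CPM in shRNA brains and 223 ± 139 CPM in control brains. The sum therefore does not stand for the 9 genes evenly. CPM is a share of each library after scaling. In whole brains, more cells of a type, more RNA per cell and less RNA from other cells therefore cannot be told apart.

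**Figure D1:**
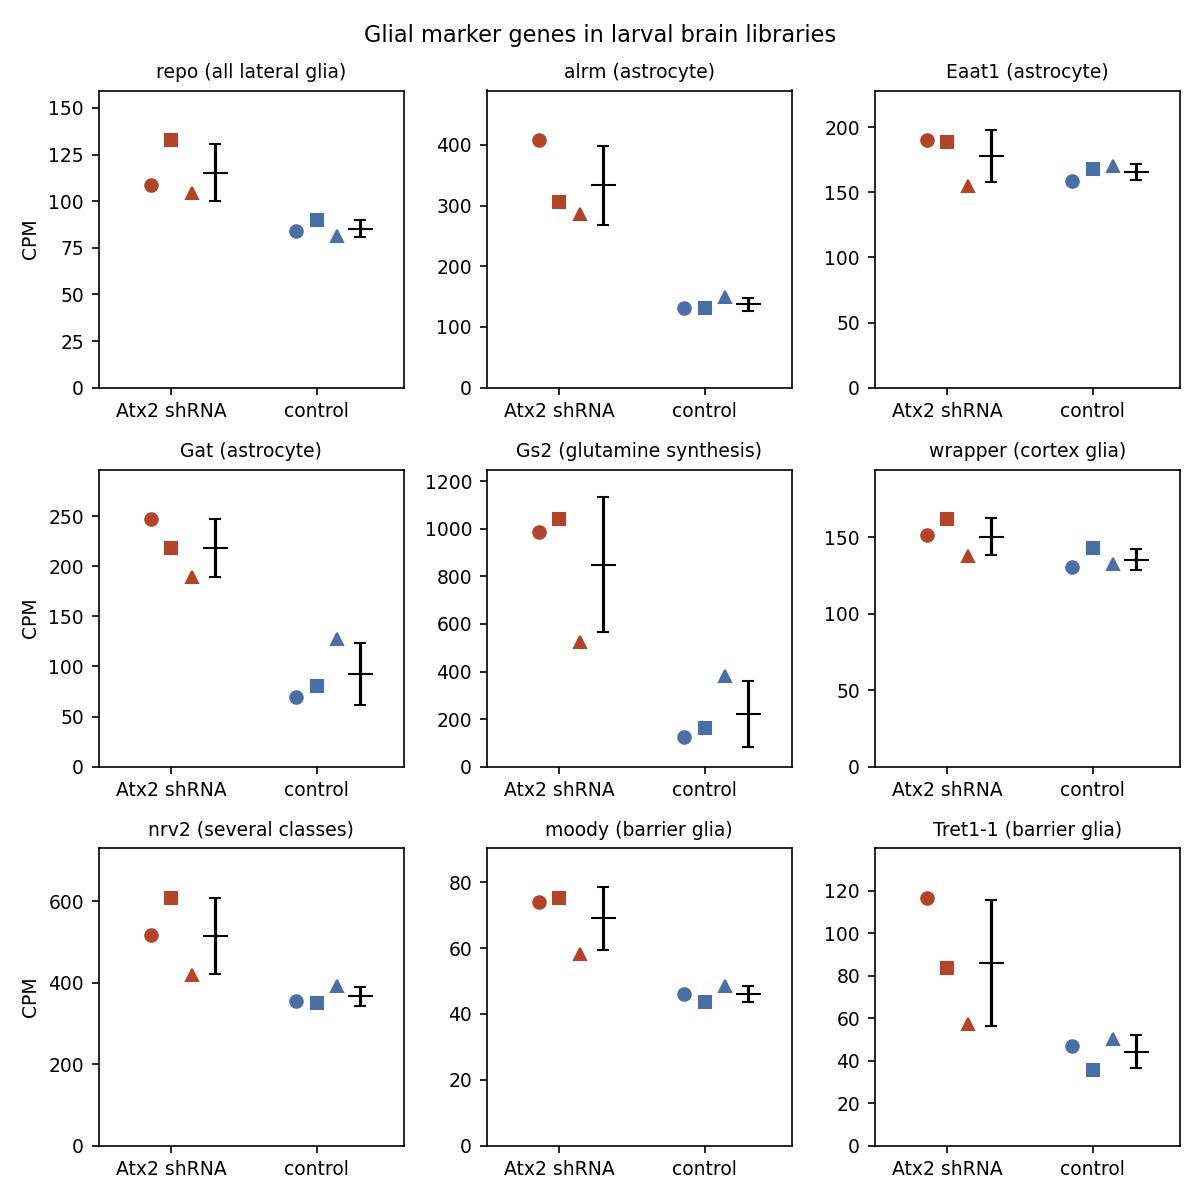
Level of each of the 9 glial genes in CPM in the 3 shRNA brain libraries and the 3 control brain libraries, with circles, squares and triangles for libraries 1, 2 and 3 and bars for the mean and SD. The groups lie apart for every gene except Eaat1 and wrapper, and Gs2 spreads most among control brains, where its 3 libraries run between 125 and 382 CPM.

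Repo (FBgn0011701, chromosome 3R, 18236192 to 18239602, plus strand) is the homeodomain factor that maintains glial identity. repo had 109, 133 and 104 CPM in shRNA brains, against 84.0, 90.2 and 81.6 CPM in control brains. The groups did not overlap, but the lowest shRNA library exceeded the highest control library by a factor of only 1.16. The mean was 115 ± 15.4 CPM in shRNA brains and 85.2 ± 4.44 CPM in control brains (SD, n = 3 each), which is 0.43 ± 0.11 on the log2 scale (SE, adjusted p = 0.0338). The call was kept without shRNA library 3 and lost without any of the other 5 libraries, with adjusted p-values of 0.0292 to 0.102. An exon of repo shares 183 bases, 6.11% of its exon length, with CG7156 on the opposite strand. No source used here says whether counting used strand, and without strand the reads of those bases cannot be told apart. CG7156 held 1946 counts in shRNA brains and 2751 in control brains, summed over 3 libraries each. No other gene of the 9 shares exon bases with a neighbour.

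Astrocyte-like glia are represented by 4 of the genes, of which 3 rose. The log2 fold changes of those 3 were the largest among the 9 genes. Astrocyte leucine-rich repeat molecule, encoded by alrm (FBgn0039332, chromosome 3R, 25381065 to 25382781, minus strand), is the surface protein whose promoter is commonly used to label these cells. alrm had 408, 306 and 286 CPM in shRNA brains, against 132, 131 and 149 CPM in control brains. Even the lowest shRNA library was 1.93 times the highest control library, the widest gap among the 9 genes. The log2 fold change was 1.28 ± 0.15 (SE, adjusted p = 0.00606), from 333 ± 65.2 CPM in shRNA brains and 137 ± 9.999 CPM in control brains (SD, n = 3 each). alrm was called in all 6 fits that left out 1 brain library, the only gene of the 9 for which this held.

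Gat (FBgn0039915, chromosome 4, 629691 to 635350, plus strand) encodes the transporter that clears the inhibitory transmitter GABA. Its level was 247, 218 and 189 CPM in shRNA brains and 69.1, 80.2 and 127 CPM in control brains. Control library 3 lay above the other control libraries, and shRNA library 3 was the lowest of its group, yet the groups stayed apart. Gat averaged 218 ± 29.0 CPM in shRNA brains and 92.1 ± 30.8 CPM in control brains (SD, n = 3 each), and the log2 fold change was 1.24 ± 0.24 (SE, adjusted p = 0.0159). The call was lost without shRNA library 2 and without control library 2, with adjusted p-values up to 0.0764 over the 6 fits that each left out 1 library.

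Gs2 (FBgn0001145, chromosome X, 11422832 to 11430197, plus strand) encodes glutamine synthetase, which turns glutamate taken up by glia into glutamine. Gs2 had 985, 1041 and 522 CPM in shRNA brains, against 125, 162 and 382 CPM in control brains. This was the largest difference of the 9 genes. Its coefficient of variation was 33.5% in shRNA brains, next to 34.5% for Tret1-1, and 62.3% in control brains, the widest of the 9 there. Libraries numbered 3 stood closest to each other across the groups, with shRNA library 3 at 1.37 times control library 3. The log2 fold change was 1.93 ± 0.47 (SE, adjusted p = 0.0309), from 849 ± 285 CPM in shRNA brains and 223 ± 139 CPM in control brains (SD, n = 3 each). It was 2.55 without control library 3 and 2.19 without shRNA library 3, and both of those fits kept the call, while leaving out any of the other 4 libraries ended it (adjusted p up to 0.119). Gs1, the gene of the mitochondrial glutamine synthetase, is its paralogue and had 82.5 ± 14.1 CPM in shRNA brains and 68.7 ± 5.35 CPM in control brains (SD, n = 3 each), with adjusted p = 0.202.

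Eaat1 (FBgn0026439, chromosome 2L, 9333567 to 9341925, plus strand), the high-affinity glutamate transporter of these glia, did not pass the test. Eaat1 had 190.1, 188 and 155 CPM in shRNA brains and 159, 168 and 169.9 CPM in control brains. The groups overlapped: shRNA library 3 was below every control library, and the other shRNA libraries were above every one. The log2 difference was 0.10 ± 0.10 (SE, adjusted p = 0.490), and it stayed at 0.05 to 0.20 when 1 library was left out.

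Of the 2 genes used for cortex glia, 1 rose. The cell surface protein wrapper (FBgn0025878, chromosome 2R, 22379637 to 22382675, plus strand) of the immunoglobulin family is expressed in cortex glia and in midline glia. wrapper had 151, 162 and 138 CPM in shRNA brains and 130.3, 143 and 132 CPM in control brains. The groups overlapped, since shRNA library 3 lay below control library 2, and the log2 difference was 0.15 ± 0.09 (SE, adjusted p = 0.248). nrv2 (FBgn0015777, chromosome 2L, 6789770 to 6798862, minus strand) encodes a beta subunit of the sodium-potassium pump, and its promoter labels cortex glia and other glial classes. Its level was 517, 607 and 419.7 CPM in shRNA brains, against 356, 350.0 and 392 CPM in control brains. Here the groups came within a factor of 1.07 of touching. The log2 fold change was 0.49 ± 0.14 (SE, adjusted p = 0.0461), and only the fit without shRNA library 3 kept the call among the 6 that left out 1 library (adjusted p 0.0163 to 0.143).

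Both genes of the blood-brain barrier rose. moody (FBgn0025631, chromosome X, 2044292 to 2050120, minus strand) encodes a G protein-coupled receptor that subperineurial glia need to seal the barrier. moody had 74.0, 75.2 and 58.1 CPM in shRNA brains, against 45.9, 43.5 and 48.6 CPM in control brains. The control libraries were tight, with an SD of 2.54 CPM, and every shRNA library was above them. The log2 fold change was 0.59 ± 0.11 (SE, adjusted p = 0.0168), which lost its call without shRNA library 2, control library 1 or control library 2 (adjusted p up to 0.0705). Tret1-1 (FBgn0050035, chromosome 2R, 11665768 to 11674782, plus strand) encodes a trehalose transporter of perineurial glia, which take up the main blood sugar of insects. Tret1-1 had 117, 83.7 and 57.5 CPM in shRNA brains, against 47.1, 35.5 and 50.2 CPM in control brains. Its shRNA libraries ranged widely, and the lowest was 1.15 times the highest control library. The log2 fold change was 0.96 ± 0.26 (SE, adjusted p = 0.0427), and the call was kept only without shRNA library 3 among the 6 fits that left out 1 library (adjusted p 0.0172 to 0.138). Reads of the paralogue Tret1-2 were few, at 1.06 ± 0.529 CPM in shRNA brains and 0.999 ± 1.06 CPM in control brains (SD, n = 3 each).

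**Figure D2:**
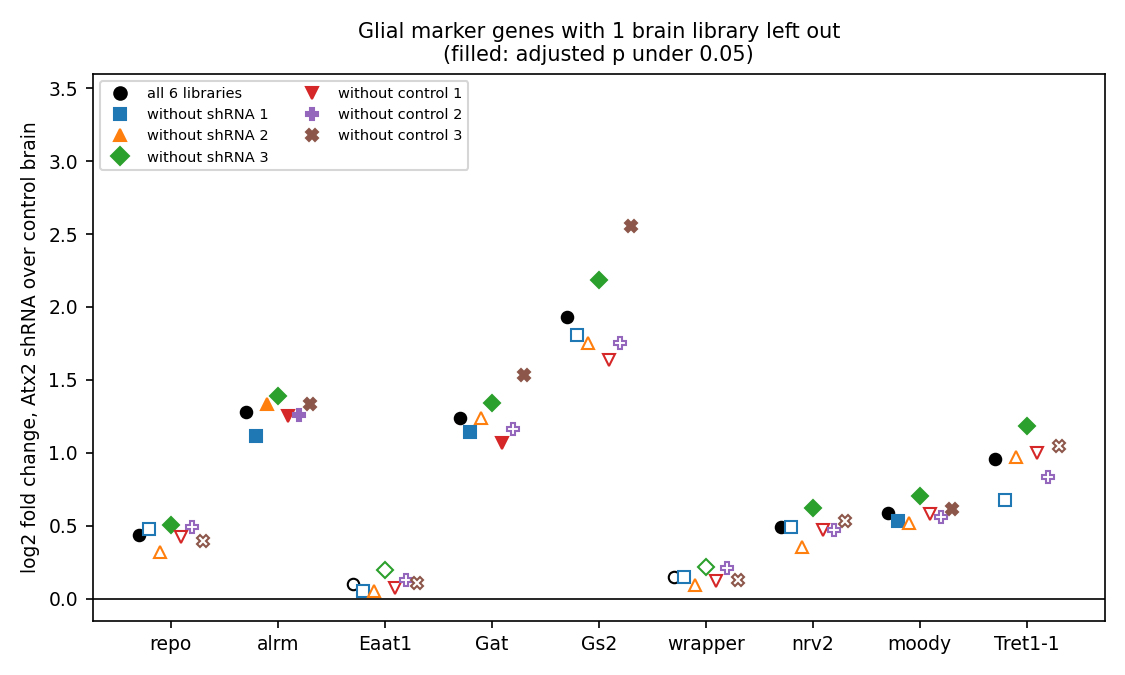
Log2 fold change of each glial gene in brains, shRNA over control, in the fit of all 6 libraries and in the 6 fits that each leave out 1 library. Every value is above 0, alrm is called in each fit, and Gs2 has the widest range, at 1.64 to 2.55.

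In control brains, levels per kilobase of exon put nrv2, Gs2 and alrm at the top, with 103 ± 6.33, 99.97 ± 62.2 and 79.8 ± 5.82 CPM per kb (SD, n = 3 each). These 3 overlapped in rank order. wrapper (68.4 ± 3.49 CPM per kb) and Eaat1 (52.8 ± 1.86 CPM per kb) followed, each apart from the genes next to it in this order. Gs2, however, ran from 56.0 to 171 CPM per kb in control brains, which takes in all wrapper values. Gat and repo overlapped at 31.8 ± 10.6 and 28.5 ± 1.48 CPM per kb, as did Tret1-1 and moody at 13.1 ± 2.29 and 11.7 ± 0.646 CPM per kb. In shRNA brains, Gs2 led with 381 ± 128 CPM per kb, then alrm with 194 ± 38.0 and nrv2 with 144 ± 26.3 CPM per kb, where each overlapped the next. Gat stood level with wrapper there, at 75.3 ± 10.02 and 76.0 ± 6.13 CPM per kb, and above Eaat1 at 56.6 ± 6.37 CPM per kb. repo (38.5 ± 5.13 CPM per kb), Tret1-1 (25.5 ± 8.77) and moody (17.5 ± 2.42) closed the order, with overlap between the last pair.

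Counts of each gene divided by those of repo in the same library compare the classes without any scaling between libraries. alrm stood at 3.75, 2.31 and 2.75 times repo in shRNA brains, against 1.57, 1.45 and 1.82 times in control brains. Gat stood at 2.27, 1.64 and 1.81 times repo in shRNA brains and 0.822, 0.889 and 1.56 times in control brains. Gs2 stood at 9.06, 7.84 and 5.01 times repo in shRNA brains and 1.49, 1.80 and 4.68 times in control brains. These 3 astrocyte genes were thus higher relative to repo in every shRNA library, as were 6.67% of all genes tested. Eaat1 was lower relative to repo in every shRNA library, at 1.75, 1.42 and 1.48 against 1.89, 1.86 and 2.08 in control brains. wrapper was also lower, at 1.39, 1.22 and 1.32 in shRNA brains against 1.55, 1.59 and 1.62 in control brains. Since repo itself rose, 49.1% of all genes tested were lower relative to it without overlap. The ratios of nrv2, moody and Tret1-1 to repo overlapped between the groups. No test was made on these ratios, since an exact 2-sided permutation test of 3 against 3 libraries cannot give a p below 0.1.

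Over the 6 brain libraries, the genes whose pattern was nearest to that of repo were Lapsyn, ND-B22 and CG42376. Likeness was the root mean square difference of log2 CPM after each gene was centred on its own mean, over 8064 genes whose mean reached 5 CPM, and was 0.04, 0.06 and 0.06 for these 3. ND-B22, a subunit of respiratory complex I, had 66.2, 78.2 and 67.2 CPM in shRNA brains and 48.9, 52.5 and 51.7 CPM in control brains. Among the glial genes, nrv2 was nearest to repo, at rank 128 with a difference of 0.12, and moody and wrapper held ranks 380 and 406. Eaat1 held rank 1165, and the remaining 4 were at ranks 6281 to 7805.

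Other genes known from glial classes gave 7 that rose (30.4%), 2 that fell and 14 that did not pass, of 23 tested, where 11.5% of all genes were higher and 11.5% lower. Their median log2 fold change was 0.04. The 23 include 4 genes of ensheathing and wrapping glia, a class without a gene among the 9. Among the called genes named from these lists and from those of fate factors, Mdr65, CG6126, Jupiter, gcm and gcm2 kept the call in each of the 6 fits without 1 brain library. Obp44a, Oct-TyrR, zyd, Cyp4g15, LRP1 and pippin lost it in at least 1 of them. Among 7 further astrocyte genes, Obp44a and Oct-TyrR rose. Obp44a, an odorant-binding protein abundant in glia, had 4698, 6526 and 5194 CPM in shRNA brains against 3524, 3662 and 3549 CPM in control brains (log2 fold change 0.61 ± 0.12 SE, adjusted p = 0.0183). Oct-TyrR, an octopamine and tyramine receptor, had 16.2, 15.2 and 14.7 CPM in shRNA brains and 9.23, 11.02 and 7.47 CPM in control brains (0.73 ± 0.17 SE, adjusted p = 0.0289). Gabat, the GABA transaminase, had a log2 difference of 0.35 (adjusted p = 0.0709), and Eaat2, which transports taurine and aspartate, one of -0.05 (adjusted p = 0.801).

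Of 3 further cortex glia genes, zyd and Cyp4g15 rose, where 11.5% of all genes tested were higher. zyd, a potassium-dependent sodium-calcium exchanger, had 128, 154 and 126 CPM in shRNA brains and 71.9, 78.5 and 93.6 CPM in control brains (log2 fold change 0.74 ± 0.13 SE, adjusted p = 0.0130). Cyp4g15, a cytochrome P450, had 137, 160.2 and 114 CPM in shRNA brains and 67.4, 77.5 and 96.7 CPM in control brains (0.77 ± 0.17 SE, adjusted p = 0.0245). None of the 4 ensheathing and wrapping glia genes was called by edgeR or DESeq2, and 0 reached an unadjusted p under 0.05. Against control S2 cells, 3 of these 4 were called lower in control brains and 1 higher, where 38.3% of all genes were lower. Their values therefore do not follow this class alone. drpr, the engulfment receptor of glia, averaged 172 ± 18.2 CPM in shRNA brains and 167 ± 10.9 CPM in control brains (SD, n = 3 each, adjusted p = 0.814). Its adaptor ced-6 had a log2 difference of -0.02, the kinase Shark one of -0.04 and the EGF ligand vn one of 0.18.

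Genes of the barrier glia moved in both directions. Among 5 subperineurial genes, Mdr65, an ABC transporter that pumps foreign compounds out of the brain, had 281, 339.8 and 294 CPM in shRNA brains and 188, 201 and 185 CPM in control brains (log2 fold change 0.67 ± 0.09 SE, adjusted p = 0.00762). LRP1, a lipoprotein receptor, was lower in every shRNA library, at 167, 173 and 192 CPM against 233, 246 and 233 CPM in control brains (-0.42 ± 0.08 SE, adjusted p = 0.0164). Gli, loco and mgl did not pass. Of 4 perineurial genes, the putative transporter gene CG6126 had 46.8, 40.9 and 31.8 CPM in shRNA brains and 13.4, 10.9 and 15.9 CPM in control brains (1.57 ± 0.20 SE, adjusted p = 0.00633). The sugar transporter gene pippin had 8.36, 7.34 and 6.78 CPM in shRNA brains and 4.51, 4.52 and 4.73 CPM in control brains (0.71 ± 0.19 SE, adjusted p = 0.0389). Jupiter, whose microtubule-associated protein is made in many cells besides glia, had 348, 405 and 453 CPM in shRNA brains and 860.4, 959 and 731 CPM in control brains (-1.08 ± 0.14 SE, adjusted p = 0.00664). Of 19 genes of the barrier's septate junctions, cora and Atpalpha rose and Lac and Nrx-IV fell, a called share of 21.1% that lies near the 23.0% of all genes tested. The median log2 fold change of that list was 0.04.

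**Figure D3:**
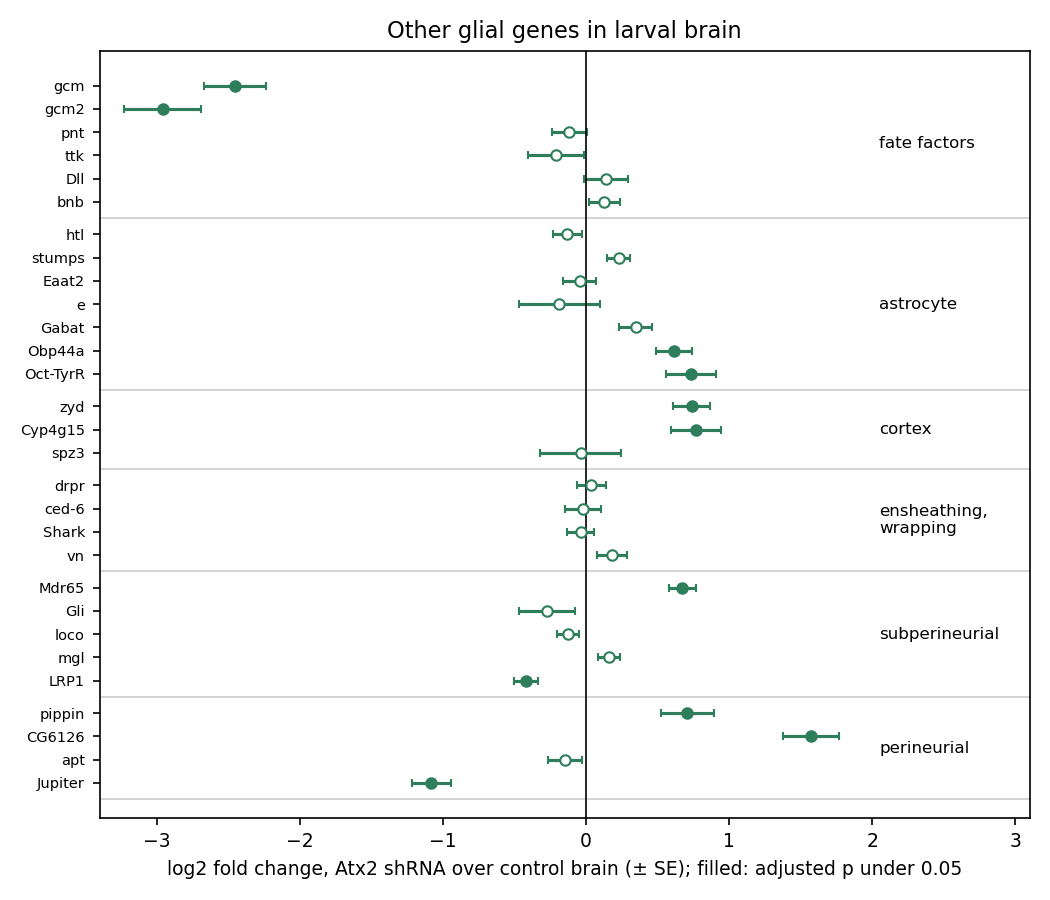
Log2 fold change in brains, shRNA over control, with its SE, for the genes of the other glial lists, grouped by class. Values above 0 are higher in shRNA brains. CG6126 is the highest of the further class markers at 1.57, and gcm2 and gcm are the lowest, at -2.96 and -2.45.

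Among 6 genes of factors for glial fate, only gcm and gcm2 were called, and both fell. gcm, the transcription factor that starts gliogenesis in the embryo and also acts in lamina neurons of the larval brain, had 6.10, 7.71 and 4.30 CPM in shRNA brains against 32.4, 34.8 and 32.1 CPM in control brains (log2 fold change -2.45 ± 0.22 SE, adjusted p = 0.00339). Its homologue gcm2 had 1.53, 2.02 and 1.12 CPM in shRNA brains and 11.2, 12.7 and 12.5 CPM in control brains (-2.96 ± 0.27 SE, adjusted p = 0.00347). pnt and ttk, transcription factors that act with or after gcm, did not pass, nor did Dll and bnb. Thus 2 of 6 genes fell and none rose, where 11.5% of all genes tested were lower and 11.5% higher. gcm and its direct target repo therefore lay on opposite sides of their controls in the same libraries.

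Of 13 genes of signals known to drive glial growth, 3 rose and 1 fell, a called share of 30.8% that is near the 23.0% of all genes tested. Pvr, the PDGF and VEGF receptor homologue, had 116, 109 and 86.9 CPM in shRNA brains and 62.1, 53.0 and 59.1 CPM in control brains (log2 fold change 0.84 ± 0.13 SE, adjusted p = 0.00909). Its ligand gene Pvf3 rose by 0.41 and the FGF ligand gene ths by 0.59 on the log2 scale, while the EGF ligand gene spi fell by 0.44. The FGF receptor gene htl, which astrocyte-like glia use to respond to ths, had a log2 difference of -0.13 (adjusted p = 0.389).

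Enzymes and transporters of the glutamate and GABA cycle, which joins glia to neurons, rose in 5 of 11 cases and fell in none, where 11.5% of all genes tested were higher and 11.5% lower. The median log2 fold change of that list was 0.40. Gad1, the neuronal enzyme that makes GABA, had 264, 229 and 211 CPM in shRNA brains and 65.6, 92.3 and 141 CPM in control brains (log2 fold change 1.23 ± 0.27 SE, adjusted p = 0.0222). Gdh rose by 0.48 and Got1 by 0.43 on the log2 scale, and the vesicular glutamate transporter gene VGlut had a difference of -0.10 (adjusted p = 0.476). Gad1 and Gat, which make and clear the same transmitter, both had their lowest control value in library 1 and their highest in library 3. Of the other glial genes, Gs2 and Eaat1 had this too and the rest did not, so it is not particular to this pair. How many of all genes share it was not counted.

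Of 12 genes of glial metabolism, 11 were tested, 4 rose (36.4%, against 11.5% of all genes) and none fell, and chk was at 0 counts in all 6 brain libraries. Ldh, lactate dehydrogenase, had 401, 377 and 119 CPM in shRNA brains and 26.9, 30.4 and 98.2 CPM in control brains. As for Gs2, the libraries numbered 3 were the closest across the groups, and the log2 fold change of 2.53 ± 0.66 (SE) had an adjusted p of 0.0380. It was 3.37 without control library 3 and 2.91 without shRNA library 3, and leaving out any of the other 4 libraries gave 2.22 to 2.33 and ended the call (adjusted p 0.0880 to 0.133). Treh, the trehalase that splits the sugar Tret1-1 carries, had 381, 269 and 305 CPM in shRNA brains and 156, 173 and 181 CPM in control brains (0.90 ± 0.14 SE, adjusted p = 0.0100). Sln and Desat1 rose by 0.70 and 0.69. The partners of nrv2 in the sodium-potassium pump also moved: the alpha subunit gene Atpalpha and the beta subunit gene nrv3 rose by 0.45 and 0.70 on the log2 scale, and nrv1 had a difference of -0.42 (adjusted p = 0.0641).

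Markers of some other cells differed between the same brains, where 23.0% of all genes tested were called, 11.5% higher and 11.5% lower. The called shares of fat body (14.3%), gut (20.0%) and tracheal and cuticle markers (16.7%) each rest on 1 gene that rose. They lie below the 23.0% called and above the 11.5% called higher. The median log2 fold change was 1.83 for fat body, 5.64 for gut, 1.91 for muscle and 0.82 for hemocyte markers. It was 0.06 for tracheal and cuticle, -0.18 for eye disc and -5.18 for salivary gland markers. Of 7 neuroblast and progenitor markers, 6 fell, led by erm, pros, ase and mira, and their summed level was 528 to 713 CPM in shRNA brains and 1574 to 1951 CPM in control brains. Among 10 neuron markers, 4 rose, including para, Rdl and Gad1, and elav fell, with sums of 2157 to 2478 CPM in shRNA brains and 1637 to 2148 CPM in control brains. Of 7 hemocyte markers, Hml, Pxn and crq rose, with sums of 398 to 573 CPM in shRNA brains and 208 to 305 CPM in control brains. The 7 fat body markers summed to 792 to 4014 CPM in shRNA brains and 385 to 847 CPM in control brains, and 1 of them, apolpp, rose. None of the 9 muscle markers was called by edgeR, although 7 were higher at an unadjusted p under 0.05 and DESeq2 called 2 of them higher, with sums of 356 to 1294 CPM in shRNA brains and 141 to 388 CPM in control brains. LManII was the gene called of the 5 gut markers tested, and 2 of the 7 gut markers were left out of the test by the filter on low counts. The summed gut level was 332 to 2230.1 CPM in shRNA brains and 137 to 183 CPM in control brains. None of the 6 salivary gland markers was called by edgeR or DESeq2 (1 lower at an unadjusted p under 0.05 in edgeR), with sums of 7.45 to 28.2 CPM in shRNA brains and 0.924 to 1926 CPM in control brains. Eye disc markers summed to 377 to 464 CPM in shRNA brains and 410.5 to 489.9 CPM in control brains with none of 8 called by edgeR. In that list 1 marker was lower at an unadjusted p under 0.05, and DESeq2 called 1. Of 6 tracheal and cuticle markers trh rose, with sums of 563 to 756 CPM in shRNA brains and 658 to 1120.2 CPM in control brains. The part of these cells in the rise of the glial genes was not tested. Without the 2 libraries richest in gut or glue counts, shRNA library 1 and control library 3, alrm, Gat and Gs2 were called, at log2 fold changes of 1.17, 1.44 and 2.44, and the other 6 glial genes were not.

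S2 cells served as the comparison outside the brain. Set against them, control brains showed 8 of the 9 glial genes at least 2-fold higher and moody lower, where 80.1% of 10291 genes tested were called, 41.9% higher, 38.3% lower and 31.0% at least 2-fold higher. In that fit, repo averaged 75.0 ± 4.26 CPM in control brains and 0.0568 ± 0.0666 CPM in control S2 cells (SD, n = 3 each), where its 3 libraries held 0, 1 and 3 counts. alrm averaged 121 ± 7.96 CPM in control brains and 0.182 ± 0.0918 CPM in control S2 cells, and wrapper 119 ± 6.39 CPM in control brains and 0.125 ± 0.0416 CPM in control S2 cells. These 3 were close to undetected in S2 cells. Gat had 81.0 ± 26.5 CPM in control brains and 0.565 ± 0.185 CPM in control S2 cells, and Eaat1 had 146 ± 4.53 CPM in control brains and 3.54 ± 2.99 CPM in control S2 cells. Gs2 had 196 ± 120.4 CPM in control brains and 7.66 ± 1.68 CPM in control S2 cells, and Tret1-1 had 38.9 ± 6.64 CPM in control brains and 9.76 ± 2.31 CPM in control S2 cells. The difference was smaller for nrv2, with 322 ± 17.7 CPM in control brains and 146 ± 4.89 CPM in control S2 cells (log2 fold change 1.14 ± 0.08 SE, adjusted p = 2.68e-06). moody averaged 40.5 ± 2.01 CPM in control brains and 54.4 ± 2.24 CPM in control S2 cells, a log2 difference of -0.43 ± 0.09 (SE, adjusted p = 0.00242) that was -0.06 (adjusted p = 0.594) with scaling by library totals alone. S2 cells, which are not glia, thus held reads of nrv2 and moody in every library. With library totals, 5282 genes were higher in control brains and 2805 lower, where TMM gave 4311 higher and 3937 lower.

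In Atx2 dsRNA cells, 6 of the 9 genes passed the filter on low counts, and 2 rose, 2 fell and 2 were not called. Over all 9058 genes tested in S2 cells, 55.0% were called, 28.5% higher and 26.6% lower. Atx2 itself, as given above, missed the threshold in these cells. The 4 called genes, nrv2 and moody among them, had groups that did not overlap, as did 63.8% of all genes tested. Both genes that rose, Gs2 and Eaat1, did so at least 2-fold, as did 15.5% of all. Scaling mattered here: TMM gave 2580 genes higher and 2406 lower, upper quartile scaling 3406 and 1870, and library totals 4906 and 1324. The median log2 fold change of all genes was 0.04 with TMM, 0.22 with upper quartile scaling and 0.53 with library totals. The 3 genes left out by the filter were repo, with 4, 3 and 4 counts in Atx2 dsRNA cells and 0, 1 and 3 in control S2 cells, alrm, with 7, 8 and 9 counts in Atx2 dsRNA cells and 5, 2 and 6 in control S2 cells, and wrapper, with 3, 5 and 1 counts in Atx2 dsRNA cells and 4, 2 and 3 in control S2 cells.

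Gs2 rose in S2 cells, at 33.8, 26.4 and 36.3 CPM in Atx2 dsRNA cells against 9.52, 6.48 and 7.89 CPM in control S2 cells. The groups were far apart, and the log2 fold change was 2.01 ± 0.20 (SE, adjusted p = 0.000123). Eaat1 had 35.9, 13.1 and 11.8 CPM in Atx2 dsRNA cells and 7.05, 2.02 and 1.83 CPM in control S2 cells. Library 1 was the highest in both groups, and the log2 fold change was 2.47 ± 0.63 (SE, adjusted p = 0.0115). It was 1.76 without Atx2 dsRNA library 1 and 3.37 without control S2 library 1, and the call was kept in each of the 6 fits without 1 library (adjusted p 0.00326 to 0.0451). nrv2 fell, at 53.9, 81.2 and 73.8 CPM in Atx2 dsRNA cells against 143, 161 and 154 CPM in control S2 cells (-1.13 ± 0.16 SE, adjusted p = 0.000690). moody had 44.4, 45.2 and 41.8 CPM in Atx2 dsRNA cells and 53.7, 60.6 and 56.2 CPM in control S2 cells, which is -0.38 ± 0.10 on the log2 scale (SE, adjusted p = 0.0128), but was -0.19 (adjusted p = 0.126) with upper quartile scaling and turned to 0.11 (adjusted p = 0.375) with library totals. The S2 fall of moody therefore depends on the scaling. Gat, with 12, 7 and 1 counts in Atx2 dsRNA cells and 19, 12 and 10 in control S2 cells, did not pass. Neither did Tret1-1, with 7.80, 11.1 and 2.79 CPM in Atx2 dsRNA cells and 12.3, 8.11 and 10.001 CPM in control S2 cells.

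**Figure D4:**
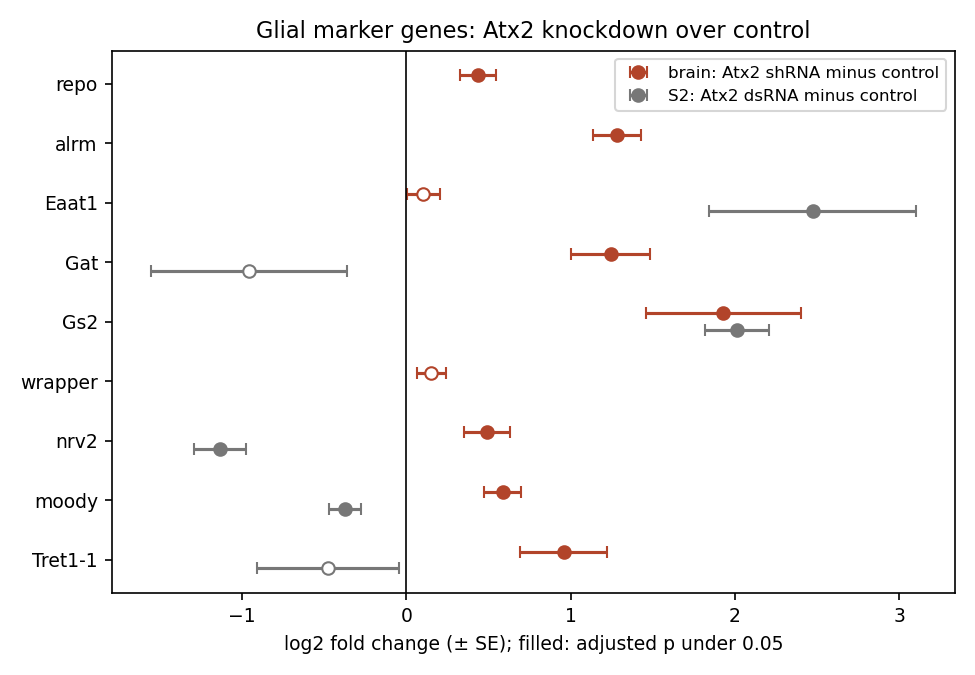
Log2 fold change with its SE for the glial genes in brains (shRNA over control) and in S2 cells (Atx2 dsRNA over control), with values above 0 higher where Atx2 was targeted. Gs2 is near 2 in both, Eaat1 is 0.10 in brains and 2.47 in S2 cells, and nrv2 and moody are above 0 in brains and, with TMM scaling, below 0 in S2 cells.

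An interaction term in a joint fit of the 12 libraries tested the brain effect minus the S2 effect, and 41.1% of 11176 genes were called, 19.7% higher and 21.4% lower in the brain. Of the 9 glial genes, 3 were called higher and 1 lower, a share near that background. These 4 were all among the 6 that passed the low-count filter in S2 cells. The share over all genes that passed that filter was not computed, so the 6 have no background to be set against. The difference of log2 fold changes was 1.63 ± 0.21 (SE, adjusted p = 0.000148) for nrv2, 0.97 ± 0.15 (adjusted p = 0.000509) for moody, 2.20 ± 0.59 (adjusted p = 0.0116) for Gat and -2.36 ± 0.72 (adjusted p = 0.0223) for Eaat1. For Eaat1 the call was lost without Atx2 dsRNA library 1, without control S2 library 2 or without control S2 library 3. Gs2 did not differ detectably between the systems, at -0.07 ± 0.54 (SE, adjusted p = 0.948), an error that leaves room for differences of either sign. For repo, alrm and wrapper, S2 counts of 0 to 9 per library leave no fold change to compare. The split of calls over all genes was 2207 higher and 2388 lower with TMM, 1859 and 3039 with upper quartile scaling and 1292 and 4413 with library totals, and the same 4 glial genes were called under each.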

How the data were processed

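Libraries from poly(A) RNA used a TruSeq mRNA kit, per the labels. The deposited tables hold raw counts per gene, 1 per sample. The submitters' processing notes name cutadapt 1.13, STAR, HTSeq 0.6.1p1, DESeq2 and the build BDGP6. No source used here gives the strand setting, annotation release or filters. Symbols, positions and exon lengths came from BDGP6.54 (Ensembl release 115), which matched 17599 of 17737 identifiers.

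Counts were analysed with edgeR 4.0.16 in R 4.3.3: filterByExpr (minimum count 10), TMM scaling, and the quasi-likelihood F test per comparison, with Benjamini-Hochberg adjustment and a threshold of 0.05. SE is the log2 fold change divided by the root of F. No 2 replicates agreed within sampling noise (chi-square 22.1 to 154 per degree of freedom). Scripts were tested on simulated data. Alternatives were other scalings and filters, DESeq2 1.42.0, a replicate block, 1 fit of 12 libraries and leaving out libraries. Glial genes and the 20 other lists were chosen with earlier results of these data known. The text names all 9 glial genes, Atx2, up to 4 called genes with the largest change per list, members of glial lists, and the 3 genes nearest to repo. Counts limit precision mainly for repo, alrm, wrapper and Gat in S2 cells.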

Additional observations from a re-analysis of the deposited data

Results flagged for a closer look

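For 4 of the 9 glial genes the log2 fold change over control in shRNA brains differed from that in Atx2 dsRNA cells. These passed the interaction test of edgeR (adjusted p under 0.05), a share near the 41.1% of all genes called in that test. All 4 were among the 6 glial genes that passed the low-count filter in S2 cells, for which no matching share over all genes was computed. The difference, brain minus S2, was 2.20 for Gat, 1.63 for nrv2, 0.97 for moody and -2.36 for Eaat1. Gat rests on 1 to 19 counts per S2 library. Eaat1 ranged over -3.32 to -1.62 in the alternatives, with adjusted p-values up to 0.0563.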

How the results depend on the processing

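The 51 brain genes followed here were the 9 glial genes, Atx2 and list genes picked because the main fit called them. All 51 kept their direction in the 15 alternatives tried, 765 combinations, of which 211 lost the call. The picking and the shared libraries made a kept direction likely in advance, and Eaat1 and wrapper had no call to lose. With 1 library left out, 494 to 2364 genes and 1 to 7 of the 9 glial genes were called in brains, against 2397 and 7 with all libraries. Without both libraries richest in glue or gut counts, 1231 genes and 3 glial genes were called. Same-numbered brain libraries deviated from their group means with correlations of 0.03, 0.22 and -0.44, and not every sample correlated best with its own number. In S2 cells the correlations were 0.44, 0.38 and 0.03. The labels state no pairing, and so few libraries per group cannot settle whether there was one. With the replicate number as a block, 40 brain genes and 0 glial genes were called by edgeR, and the 7 had adjusted p-values of 0.0520 to 0.126, each with an unadjusted p under 0.05. DESeq2 called 3328 brain genes and the same 7 glial genes, the unfiltered edgeR fit 6 and 1 fit of all 12 libraries 5. Other scalings and the stricter filter kept 7. In S2 cells moody turned to 0.11 with library totals. The cause of these changes was not tested. Depth limits repo, alrm and wrapper in S2 cells, where 0 to 9 counts per library give no fold change.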

Other observations

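Outside the 9 genes, 3 glial genes in S2 cells were chosen after their values were seen, and all 3 fell. Of the 18 other glial genes tested in S2 cells 5 rose and 8 fell, and of 8 tested in the glutamate and GABA cycle list 3 rose and 3 fell, where 55.0% of all genes were called. Gs1, the paralogue of Gs2, fell to 75.4, 51.5 and 80.9 CPM in Atx2 dsRNA cells, against 255, 136 and 162 CPM in control S2 cells (log2 fold change -1.41 ± 0.26 SE, adjusted p = 0.00265, edgeR), so the glutamine synthetase genes moved in opposite directions there. The engulfment adaptor gene ced-6 had 66.6, 41.9 and 47.1 CPM in Atx2 dsRNA cells and 783, 420.5 and 637 CPM in control S2 cells (-3.56 ± 0.28 SE, adjusted p = 4.78e-05). Its receptor gene drpr had 184, 134 and 202 CPM in Atx2 dsRNA cells and 347, 324 and 336 CPM in control S2 cells (-0.95 ± 0.16 SE, adjusted p = 0.00153). Neither of these 2 engulfment genes was called in brains.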
